A study of Mus musculus with 8 samples.

Results

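Isolated 300 bp SMCHD1 peaks are the short peaks of the list that stand alone. A listed region was counted as one when its window shared no base with another listed window on the same chromosome and its peak was exactly 300 bp long. There were 926 such regions among the 2840 listed, and each window was the peak with 5 kb on each side, 10300 bp in all. A further 158 peaks of 300 bp were left out because their windows overlapped another. Another listed window lay within 10 kb of 43 members, the nearest 200 bp from the window at *Tfap2b*. The isolated peaks of the next length, 519 peaks of 450 bp, had median values of 7.55 in wild-type and 7.60 in *MommeD43* cells, against 6.50 and 6.47 at 300 bp.

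SMCHD1 is a chromatin protein of the SMC family that takes part in silencing of the inactive X chromosome, imprinted clusters and clustered gene families. It carries an ATPase domain and a hinge domain that binds nucleic acids. *MommeD43* is a missense allele with a change in the extended ATPase domain.

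SMCHD1 was measured by ChIP-seq with an anti-GFP antibody in primary female neural stem cells from the embryonic cortex of C57BL/6J mice. In both genotypes the endogenous protein was fused to GFP. The wild-type cells were 3 independent lines homozygous for the tagged allele, and the *MommeD43* cells were 3 independent lines homozygous for *MommeD43* on that allele. The values are log2 read counts normalized by total library size, and the authors merged the 3 lines, so each region has 1 value per genotype, and neither the spread among lines nor a test of genotype can be given. The wild-type data and the peaks were both published earlier, and peak length may not be independent of the wild-type value. No batch is named, so differences of batch and of genotype cannot be told apart. Cell identity was not checked here, since these files hold no expression values. By an estimate from the lowest values, the median member held 65.8 reads per wild-type library and 55.2 per *MommeD43* library. From counting error alone, the SD of the difference was 0.15 (log2) in the median member.

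The peaks at the extremes of level and of difference are shown to let their composition be read. Sequences are from RefSeq GRCm38.p6, plus strand, with CpG dinucleotides in capitals. Peaks that hold UTR sequence, at *Tssk6*, *Tmem132c* and *Tmem200c*, are not printed, and the next in order stands in their place. The strongest printed are chr7:5014951-5015250 in an intron of *Zfp524*, chr2:122377651-122377950 near *Shf* and chr10:122892451-122892750 in an intron of *Ppm1h*. Those with no reads in either genotype are chr5:132231301-132231600 and chr5:132530251-132530550 in introns of *Auts2* and chr12:109443151-109443450 near *Dlk1*. The windows of these also occur whole in patch sequences of the assembly, so their 0 reads may not give a level of SMCHD1. The peak in an intron of *Naip3*, chr13:100343851-100344150, had the largest difference upward in *MommeD43* among peaks without UTR sequence. The peak near *Mmp16*, chr4:17579551-17579850, had the largest downward among members with a mean value above 4.
Zfp524: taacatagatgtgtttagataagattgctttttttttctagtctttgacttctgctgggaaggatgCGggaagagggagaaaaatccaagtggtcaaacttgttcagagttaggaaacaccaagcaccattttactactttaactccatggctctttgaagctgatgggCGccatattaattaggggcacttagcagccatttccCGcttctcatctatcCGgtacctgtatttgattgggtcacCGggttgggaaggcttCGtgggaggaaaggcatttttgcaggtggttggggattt
near Shf: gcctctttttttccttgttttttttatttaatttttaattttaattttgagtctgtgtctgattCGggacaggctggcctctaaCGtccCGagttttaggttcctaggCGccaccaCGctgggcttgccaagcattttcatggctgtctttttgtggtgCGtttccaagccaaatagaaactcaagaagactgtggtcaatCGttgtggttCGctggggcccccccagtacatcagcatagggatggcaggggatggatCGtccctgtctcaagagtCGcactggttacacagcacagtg
Ppm1h: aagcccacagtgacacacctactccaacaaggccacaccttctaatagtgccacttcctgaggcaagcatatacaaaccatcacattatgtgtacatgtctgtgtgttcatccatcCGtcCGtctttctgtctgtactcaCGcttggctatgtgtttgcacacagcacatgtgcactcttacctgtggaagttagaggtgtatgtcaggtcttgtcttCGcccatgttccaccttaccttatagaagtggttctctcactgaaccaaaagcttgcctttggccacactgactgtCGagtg
Auts2, first peak: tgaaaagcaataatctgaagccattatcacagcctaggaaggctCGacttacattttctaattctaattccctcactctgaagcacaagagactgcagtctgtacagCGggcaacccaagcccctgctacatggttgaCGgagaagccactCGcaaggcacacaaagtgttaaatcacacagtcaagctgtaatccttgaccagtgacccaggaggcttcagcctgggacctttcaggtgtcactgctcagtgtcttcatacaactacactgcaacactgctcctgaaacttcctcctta
Auts2, second peak: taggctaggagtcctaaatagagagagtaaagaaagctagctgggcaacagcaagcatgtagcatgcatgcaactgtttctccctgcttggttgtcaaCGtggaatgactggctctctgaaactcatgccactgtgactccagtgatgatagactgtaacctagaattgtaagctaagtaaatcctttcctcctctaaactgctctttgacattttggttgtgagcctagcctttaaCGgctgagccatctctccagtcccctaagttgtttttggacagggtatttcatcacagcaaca
near Dlk1: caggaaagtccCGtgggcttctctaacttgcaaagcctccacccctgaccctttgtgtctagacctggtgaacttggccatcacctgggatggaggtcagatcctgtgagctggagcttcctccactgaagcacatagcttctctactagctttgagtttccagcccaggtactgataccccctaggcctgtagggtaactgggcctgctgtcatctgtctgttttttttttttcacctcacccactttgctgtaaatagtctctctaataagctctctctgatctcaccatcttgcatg
Naip3: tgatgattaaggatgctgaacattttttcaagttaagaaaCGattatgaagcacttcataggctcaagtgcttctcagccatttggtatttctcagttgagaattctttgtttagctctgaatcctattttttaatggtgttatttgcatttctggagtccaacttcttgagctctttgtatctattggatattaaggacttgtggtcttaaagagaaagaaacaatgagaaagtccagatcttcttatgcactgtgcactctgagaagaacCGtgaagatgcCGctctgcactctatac
near Mmp16: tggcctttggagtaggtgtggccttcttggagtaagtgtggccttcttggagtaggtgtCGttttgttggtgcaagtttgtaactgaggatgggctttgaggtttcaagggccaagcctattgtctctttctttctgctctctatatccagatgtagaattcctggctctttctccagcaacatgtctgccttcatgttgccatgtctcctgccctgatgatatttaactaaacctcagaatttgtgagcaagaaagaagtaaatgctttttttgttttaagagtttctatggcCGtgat
The peak near *Shf* holds 10 CpGs, that in *Zfp524* 6 and that in *Ppm1h* 5. The *Auts2* peaks hold 4 and 2, the *Naip3* peak 3, the peak near *Mmp16* 2 and the peak near *Dlk1* 1. The median over all members was 1 CpG per peak, and 242 of the 926 peaks held none.

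Isolated 300 bp peaks lay at the low end of the SMCHD1 list. The median value was 6.50 in wild-type and 6.47 in *MommeD43* cells, against 7.76 and 7.83 over all 2840 regions. The middle 90% of members ran from 5.29 to 8.19 in wild-type and from 5.26 to 8.26 in *MommeD43* cells (5th to 95th percentile). The highest wild-type value was 9.32, at *Zfp524*, and the highest *MommeD43* value was 9.49, near *Shf*. Members made up 47.8% of the isolated regions and held 26.2% of their linear signal in wild-type and 25.8% in *MommeD43* cells. Among longer isolated peaks the wild-type median was 8.26 at 600 bp, 8.59 at 750 bp and 8.68 at 900 bp. Window length differed far less, from 10300 bp to 10900 bp. The 158 peaks of 300 bp whose windows overlapped another had medians of 7.61 in wild-type and 7.64 in *MommeD43* cells, above those of the isolated peaks of equal length.

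**Figure D1:**
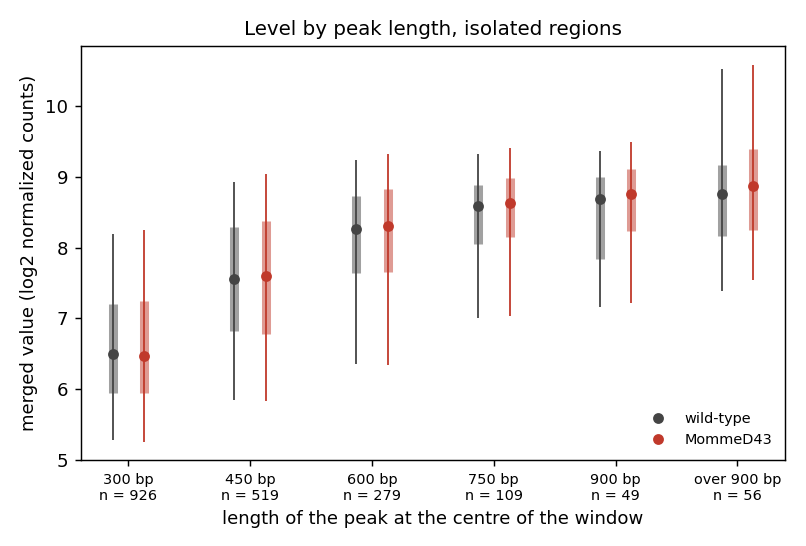
Merged SMCHD1 value (log2 normalized counts) by peak length for isolated regions in wild-type (grey) and *MommeD43* (red) cells, with points at the median, thick bars from the 25th to the 75th percentile of regions and thin lines from the 5th to the 95th. The 926 peaks of 300 bp have the lowest medians, 6.50 and 6.47.

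Members overlapped genes less often than the listed peaks as a whole. Of the 926 peaks, 565 (61.0%) overlapped no gene of GENCODE M21, 302 lay in an intron, 49 in an exon and 10 held a transcription start (1.08%). Over all listed peaks, which include longer ones, 43.6% overlapped no gene and 9.65% held a start, and 53.9% of the bases of the genome lie in no gene. At equal length, 43.7% of the 158 peaks of 300 bp whose windows overlapped another were in no gene and 3.16% held a start. The median distance from a member to the nearest start of a protein-coding gene was 126911 bp, against 21427 bp over all listed peaks. Member windows had a median GC content of 38.5%, against 41.8% over all listed windows and 41.7% over the genome. A CTCF core motif, CCNNNAGNNGGC on either strand, occurred in 25 members (2.70%), in 2.95% of all 300 bp peaks and in 8.61% of the 32851 RefSeq promoters of 300 bases. The motif fixes few bases and no chance rate was computed, so a match is not a CTCF site. The promoters held a median of 7 CpGs against 1 in members, and the part of base composition in these shares was not tested.

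The strongest members were richer in GC and closer to genes than the rest. The peak in the intron of *Zfp524*, which encodes a zinc finger protein, had 9.32 in wild-type and 9.37 in *MommeD43* cells. The peak near *Shf*, whose window holds 3 tRNA genes, had 9.13 and 9.49. The peak in the exon of *Tssk6*, a testis-specific serine kinase gene, chr8:69903001-69903300, had 9.17 and 9.42 and held 38 CpGs. *Ppm1h*, which encodes a protein phosphatase, had 9.17 and 9.15. *Fosb*, an AP-1 transcription factor gene, had 9.13 and 9.18. These peaks stood far above the 95th percentile of members in both genotypes. The peak over the shared start of *Wdr83* and *Wdr83os* had 9.05 and 9.19. *Srgap3* had 8.82 and 8.98. *Urad*, which encodes an enzyme of uric acid breakdown, had 8.77 and 8.98. Another listed window lay within 10 kb of the one at *Urad*, as it did for *Zfp978* and the second peak in *Auts2*. The X-linked peak 192 bp from the start of *Eif2s3x*, which encodes a translation initiation factor subunit, had 8.75 and 8.96. The peak nearest to *Arhgap12* had 8.85 and 8.76. Of these 10, 8 were higher in *MommeD43* as deposited, 6 after subtraction of the median over all listed regions and 5 after a fit on GC content, where the shares of all members were 52.2%, 38.2% and 46.3% and that of all listed regions as deposited 66%. Of the same 10, 7 lay in a protein-coding gene, against 32.2% of all members, and 5 lay within 1 kb of a transcription start, against 7.13%. Their windows had a median GC content of 48.9%.

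Most of the weakest members had no reads. The pair of intronic *Auts2* peaks, the peak 9399 bp from the start of *Dlk1*, an imprinted gene, the peak nearest to *St6gal2*, the peak in *Kif11*, which encodes a mitotic kinesin, and the X-linked peak in *Gm14661*, nearest to *Sox3*, were all at the lowest value of each column. That value, 0.31 in wild-type and 0.53 in *MommeD43* cells, stands for 0 reads in each of the 3 libraries. The difference of 0.22 at these 6 regions is the difference between the library factors alone. The peak in *Rims1*, a synaptic gene, had 0.36 and 0.53. These 7 windows are not repetitive in the primary assembly, where 91.0% to 98.6% of their 31-mers occurred once. All of their 31-mers also occurred in a patch sequence of GRCm38. Patches are corrected or alternative stretches issued as separate sequences beside the chromosomes. Windows of 13 listed regions matched patches of earlier accession series, and their wild-type values lay between 0.31 and 1.68. Windows of 12 listed regions matched patches of the latest series and had wild-type values of 6.24 to 8.87. The only member among these 12, at *Hspa4l*, had 7.94 in wild-type and 8.01 in *MommeD43* cells. A further listed region with 93.7% of its 31-mers in patches could not be assigned and had 8.997 and 9.27. The part of patch sequences in the low values was not tested.

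The other weak members had few reads. The X-linked peak nearest to *4932411N23Rik* had 3.06 in wild-type and 2.02 in *MommeD43* cells, from 6.07 and 2.52 reads per library, and its window held 2847 unknown bases. *Zfp978*, one of a repeated group of zinc finger genes, had 4.03 and 4.104, and 13.7% of its window's 31-mers were unique. The peak nearest to *Otol1* had 4.28 and 4.09. There were 8 members with a mean of both genotypes at 4 or less, and the accounts by class below use the other 918.

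The genotypes ranked the members alike. Across the 926 regions Pearson's r was 0.980 and Spearman's coefficient 0.971. All windows had the same length, so length does not enter this r, but base composition, mappability and the merged libraries are shared by all points, and no p-value is given. Over the 918 members above the low values r was 0.974. *MommeD43* was higher in 483 members (52.2%) and lower in 443, where 66% of all listed regions were higher. The median difference, *MommeD43* minus wild-type, was 0.01, and the SD across members was 0.21. The direction of this balance depends on the scaling. After subtraction of the median difference over all listed regions, 0.07, 354 members were higher and the median difference was -0.06.

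**Figure D2:**
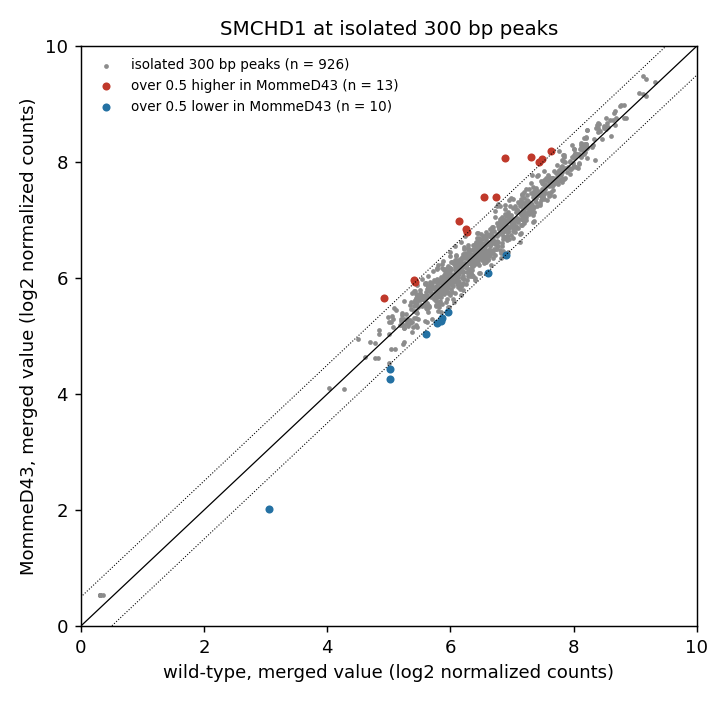
Merged value (log2 normalized counts) of each of the 926 isolated 300 bp peaks in *MommeD43* against wild-type cells, with the line of equality and dotted lines 0.5 to either side. The 13 red points and 10 blue points lie over 0.5 above and below equality as deposited (7 and 20 after subtraction of the median over all listed regions), and the points at the lower left are members with no or very few reads.

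At equal region length the difference as deposited varied with level. Members with a mean above 4 were divided into quintiles of level. In the highest quintile 126 of 184 (68.5%) were higher in *MommeD43* as deposited, with a median difference of 0.07, but 90 of 184 were higher after subtraction of the median over all listed regions. In the other quintiles the median difference lay between -0.02 and 0.00. Other listed regions over the same top range of level had a median difference of 0.08, with 73.5% higher. The SD of the differences was 0.25 in the lowest quintile, 1.14 times that of counting error, and 0.18 in the highest, 1.94 times. The excess over counting error could not be divided between genotypes, lines and batches.

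Few members were far apart between genotypes. Of 926, 13 (1.40%) were over 0.5 higher in *MommeD43*, against 1.23% of all listed regions, and 10 (1.08%) were over 0.5 lower, against 0.458%. In either direction 23 (2.48%) were over 0.5 apart, against 1.69% of all listed regions. After subtraction of the median over all listed regions 7 were over 0.5 higher and 20 over 0.5 lower, so the larger side depends on the scaling. Differences of over 4 counting SDs were found in 14 of 926 members, all higher in *MommeD43*, against 8.66% of all listed regions higher and 0.246% lower. The shares past either threshold depend on reads, since the median counting SD was 0.152 in members and 0.097 over all listed regions. Larger counting error can raise the share past 0.5, and its part in the shares above was not tested. After the same subtraction 9 members were over 4 counting SDs higher and 3 lower. *Elavl4*, which encodes a neuronal RNA-binding protein, had 7.76 in wild-type and 8.18 in *MommeD43* cells. It was picked from the 14 after its values were seen, as a member outside the lists by level and size of difference.

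The largest differences upward, in *Tmem132c* and *Tmem200c*, were at CpG-rich peaks close to a transcription start. *Tmem132c*, which encodes a transmembrane protein, had 6.88 in wild-type and 8.08 in *MommeD43* cells, a difference of 1.19 with a counting SD of 0.11. Its peak, chr5:127241851-127242150, lies 43 bp from the start and holds 37 CpGs. *Tmem200c*, with 29 CpGs in its peak, had 6.54 and 7.40. *Naip3*, named for a family of inflammasome genes but not annotated as protein-coding, had 6.14 and 6.98, and 44.7% of its window's 31-mers were unique. The nearest start of a protein-coding gene was that of *Naip6*, 26177 bp away. *Camta1*, which encodes a calmodulin-binding transcription activator, held 2 members over 0.5 apart as deposited. They had 7.30 and 8.09, and 7.64 and 8.19. The peak nearest to *Gk2* had 6.74 and 7.40. *Oas1c*, of the oligoadenylate synthetases, had 7.49 and 8.05, and *Tfap2b*, an AP-2 transcription factor gene, had 7.44 and 7.99, with another listed window 200 bp away. *Epb41l3*, which encodes a membrane skeleton protein, had 6.25 and 6.84. The peak nearest to *Tpm3-rs7* had 4.92 and 5.66, from 22.01 and 31.5 reads per library. After subtraction of the median over all listed regions the second *Camta1* peak, *Oas1c* and *Tfap2b* no longer differed by over 0.5, each with a difference of 0.48.

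The largest differences downward among members with a mean above 4 were mostly at weak members. Of the 10, 6 lay in no gene, much as among all members (61.0%), and 4 had under 75% unique 31-mers, against 18.1% of all members. The peak nearest to *Mmp16*, 273608 bp from its start, had 5.01 in wild-type and 4.25 in *MommeD43* cells, from 23.5 and 11.9 reads per library. *Lrfn5*, which encodes a synaptic adhesion molecule, had 5.02 and 4.44. The peak beside *Olfr195* had 5.84 and 5.27, and that nearest to *Olfr1029* 5.596 and 5.03. *Nlrp4a* had 5.86 and 5.32. *Lrmda*, the strongest of the 10, had 7.13 and 6.63. As deposited the 10 lay 2.06 to 3.70 counting SDs below 0, whereas the 10 largest upward lay 3.20 to 10.8 above. After subtraction of the median over all listed regions 3 members lay over 4 counting SDs below 0 and 9 above.

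**Figure D3:**
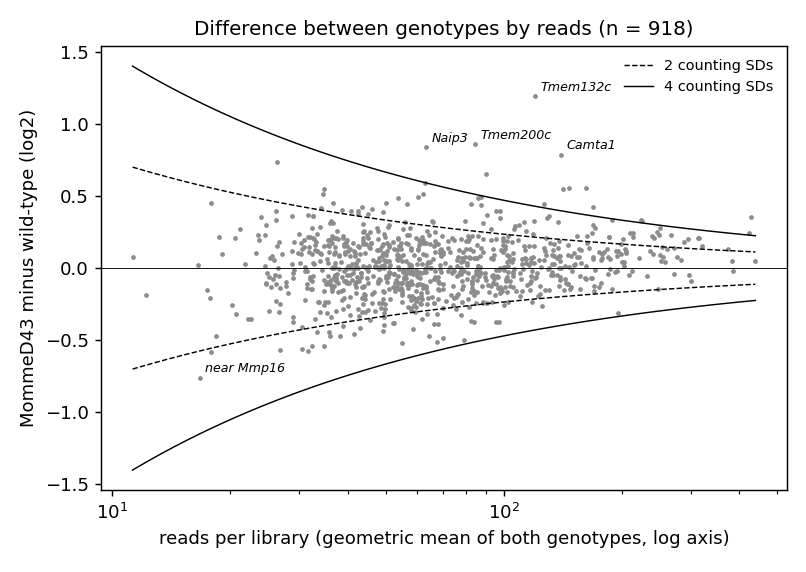
*MommeD43* minus wild-type (log2) against reads per library (log axis) for the 918 members with a mean level above 4, with dashed and solid curves at 2 and 4 counting SDs. As deposited the 14 members outside the solid curves lie on the upper side, led by *Tmem132c* at 1.19. After subtraction of the median over all listed regions 9 members differ by over 4 counting SDs upward and 3 downward.

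Level was higher in windows of higher GC content. Across the 918 members Pearson's r of the value with window GC was 0.696 in wild-type and 0.712 in *MommeD43* cells, and with the share of unique 31-mers 0.262 and 0.269. These points share libraries and depth, and the part of base composition in the level was not tested. The 182 members with 36% GC or less had medians of 5.84 in wild-type and 5.88 in *MommeD43* cells. The 32 members over 48% GC had 8.20 and 8.40. Of these 32, 28 were higher in *MommeD43* as deposited, 24 after subtraction of the median over all listed regions and 20 after a fit on GC content, beside 52.2%, 38.2% and 46.3% of all members. The wild-type median was 8.14 in members that held a start, 6.73 in exonic, 6.84 in intronic and 6.36 in members of no gene. The 10 starts included *Wdr76*, at 8.11 and 8.23, *Clcn4*, a chloride channel gene, at 7.82 and 8.12, and *Npr3*, a natriuretic peptide receptor gene, at 8.01 and 8.06. Of the 10, 8 were higher in *MommeD43* as deposited, 6 after subtraction of the median over all listed regions and 5 after the fit on GC, beside the same shares of all members and 66% of all listed regions as deposited.

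**Figure D4:**
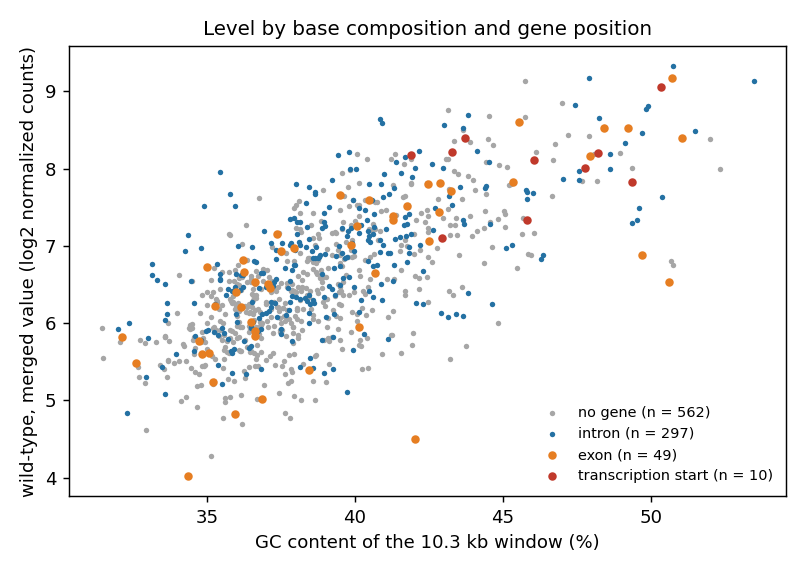
Wild-type merged value (log2 normalized counts) against the GC content of the window (%) for the 918 members with a mean level above 4, coloured by what the peak overlaps. The median was 5.84 at 36% GC or less and 8.20 over 48%, and the 10 peaks with a transcription start had a median of 8.14.

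Some genes held several members. Protein-coding genes with a member peak numbered 257, of which 31 held at least 2, and those named next were picked from the 31 after their values were seen. *Dlg2*, which encodes a postsynaptic scaffold, held 6 members of 6.11 to 7.01 in wild-type and 5.90 to 7.21 in *MommeD43* cells. *Lingo2* held 5, of 5.46 to 6.17 in wild-type and 5.49 to 6.28 in *MommeD43* cells. *Cntn4*, a contactin gene, held 3, all higher in *MommeD43* under each scaling tried. As deposited the differences were 0.09 to 0.19, less than 2 counting SDs in each. *Lsamp*, a limbic adhesion gene, held 3, all lower under each scaling. As deposited the largest difference was -0.21, also less than 2 counting SDs.

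Several gene families listed by symbol had medians below that of all members, among them olfactory, vomeronasal, cadherin and contactin genes. Their windows had a lower median GC content or share of unique 31-mers than those of all members. The median GC content was 34.6% for cadherins, near the class of 36% or less with its median level of 5.84, and 36.8% for contactins. The median share of unique 31-mers was 44.2% for vomeronasal genes. Windows of axon guidance genes, protocadherins and imprinted genes also had a lower median GC content, 34.8%, 37.1% and 36.3%. Their wild-type medians, 7.15, 6.71 and 6.70, lay above that of all members. The part of base composition in the family medians was not tested. Olfactory receptor genes were in 15 member windows, 60% of the 25 listed regions with such genes, the median being 5.95 in wild-type and 5.77 in *MommeD43* cells. Of the 15, 5 were higher in *MommeD43* as deposited and 2 to 4 under the scalings, against 483 and 354 to 465 of all 926 members. *Olfr38* was over 0.5 higher as deposited, at 5.41 and 5.96, and 0.48 higher after subtraction of the median over all listed regions. *Olfr195* was over 0.5 lower, and the other olfactory members differed by less than 2 counting SDs. The 3 vomeronasal members, at *Vmn2r7*, *Vmn2r76* and *Vmn2r114*, were all lower under each scaling, and their medians were 5.82 and 5.58, with *Vmn2r76* alone past 2 counting SDs. Contactins, neurexins and their relatives were in 12 windows (median 6.08 in wild-type and 6.00 in *MommeD43* cells), with 7 higher in *MommeD43* under each scaling. Cadherin genes had 5, at *Cdh20*, *Cdh19* and *Cdh8*, with medians of 5.93 and 5.84 and the strongest in *Cdh19* at 6.76 and 6.55. The 2 in *Cdh8* were higher in *MommeD43* under each scaling, and the 3 in *Cdh20* and *Cdh19* were lower. Zinc finger genes had 8, whose medians were 7.75 and 7.87, 6 of them higher as deposited and 4 under each scaling. Protocadherins were represented by *Pcdh7* alone, with 2 members at 6.67 and 6.88 and at 6.76 and 6.76. *Epha3* and *Robo1*, receptors for axon guidance, had 3 members, the strongest at *Robo1* with 7.998 and 7.93. Those in *Epha3* had 6.97 and 7.05, and 7.15 and 7.33. The potassium channel prefix gave *Kcnh7*, at 6.26 and 6.199, and *Kcnip4*, at 6.65 and 6.75. Homeobox and forkhead genes of the Hox, Dlx, Lhx, Nkx, Pax, Irx, Pou and Fox prefixes were in 244 listed windows (8.59%) and 2 member windows (0.216% of members). These were at *Pou2f2* (8.38 and 8.64) and *Nkx2-9* (7.73 and 7.74). The 244 listed windows had a wild-type median of 9.86. Windows that overlap another and longer peaks cannot be members, so this contrast may follow from how members were defined. Imprinted genes had *Ndn*, at 7.59 and 7.78, and *Ube3a*, at 5.82 and 5.92. Sox genes and the neural stem cell list were in few listed windows (5 and 2), and Wnt and Fzd genes in 0, so their absence from member windows says little.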

How the data were processed

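GFP ChIP-seq of 3 wild-type and 3 *MommeD43* lines was used, and the 2 WCE libraries were not analysed here. Per the submitters' processing notes the reads were trimmed with Trim Galore 0.4.4 and mapped with Bowtie2 2.3.4.1 to GRCm38.p6. The authors deposited log2 counts over each peak with 5 kb on each side, scaled to total library size, as 1 merged column per genotype. Columns were assigned to genotypes by their names.

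The window was checked to be the peak with 5 kb on each side in 2840 of 2840 regions. Reads were estimated by taking each value as an average over 3 libraries on the log2 scale, where 0 reads count as 0.9. This was tested on low values, leaving out the lowest, which sets the scale. The product of the 3 libraries' reads was whole within 0.01 in 14 of 14 wild-type and 29 of 29 *MommeD43* values with products under 10000. The bound was 2000 at first, with 4 of 4 and 7 of 7 values whole, and was widened with the outcome for 10000 known from an earlier analysis. Between 10000 and 20000, 19 of 28 and 42 of 58 were whole, where the printed decimals no longer resolve whole numbers. The counting SD of a difference comes from these reads and is a lower bound, without variation between lines or PCR duplicates.

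Scalings tried were subtraction of the median difference over all listed regions and local fits of the difference on level and on GC content over those regions. GC content, CpGs, a motif and 31-mers were counted in GRCm38.p6 and genes taken from GENCODE M21. A window was called unique by 31-mers in the primary assembly. Windows with over 90% of 31-mers in patches were matched to patch sequences, a value set after the shares were seen, which leave a gap from 72.7% to 93.7%. Named members are the 10 highest and 10 lowest by mean of both genotypes, the 10 largest differences in each direction among means above 4, and gene families by symbol. Other members were named after their values were seen, among them *Hspa4l*, the named starts, the genes with several members and the patch windows. Some named members and 1 family are not reported here. Members and lists were chosen with earlier results of these data known. The functions were tested on simulated data. The tools were Matplotlib 3.10.9, Numba 0.67.0, statsmodels 0.14.6, pandas 2.3.3, SciPy 1.17.1 and NumPy 2.4.6 under Python 3.11.15.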

Additional observations from a re-analysis of the deposited data

How the results depend on the processing

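No paired analysis was possible because the 3 lines of each genotype were merged into 1 value, and for the same reason no line could be left out. Of 61 values recomputed under 17 settings, 3 of them chosen after seeing the data, 48 stayed close to the value reported. Close meant within a counting SD of 0.10 for a median level, within the counting error of 0.00655 for the median difference, within 0.01 for r, within 1.5 times for a count and within the 95% Wilson interval for a share. The 0.10 is the counting SD of a single region and is wide for a median. The limit for a count is wide too. It passed 354 (38.2%) and 429 (46.3%) of 926 members higher in *MommeD43* as close to 483 (52.2%), though the majority was then lower. It also compared counts and not shares, so 784 of 1445 regions (54.3%) did not pass. Median levels counted as close ran from 6.49 to 6.52 in wild-type and from 6.47 to 6.49 in *MommeD43* cells. The limit for the median difference was made narrower after a first outcome was seen, because a wider one passed a change of sign.

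With isolated 450 bp peaks added, the median level was 6.85 in wild-type and 6.84 in *MommeD43* cells, the median difference 0.0170, 784 of 1445 regions were higher in *MommeD43*, 2.70% held a start and 53.4% lay in no gene. These moves follow from the added peaks. The median difference was -0.0648 after subtraction of the median over all listed regions, 0.000857 after a fit on level and -0.0123 after a fit on GC, so its sign depends on the scaling, and 354, 465 and 429 of 926 members were then higher in *MommeD43*. Regions over 0.5 apart numbered 23 of 926 (2.48%), 8 of 926 at a threshold of 0.6 and 14 of 778 (1.80%) without chromosomes 4, 5 and 17. Those chromosomes were picked after the values were seen and held 2, 4 and 2 of the 13 members over 0.5 higher, so a fall was to come. The share with a start was 7.13% within 1 kb, and 67.8% lay in no protein-coding gene. Depth limits the weak members, since the lowest 5% held under 28.4 reads per wild-type and under 23.9 per *MommeD43* library.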

Other observations

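Pearson's r of the differences of 2 members was 0.303 across 69 pairs within 100 kb, 0.0994 across 131 pairs at 100 to 300 kb, 0.193 across 418 pairs at 300 to 1000 kb, 0.00164 across 950 pairs at 1000 to 3000 kb and 0.0472 across 2723 pairs at 3000 to 10000 kb. It did not fall steadily with distance. Members enter several pairs, and no p-value is given.

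The groups of members named next were picked after the values were seen. On chromosome 17, on the lower-coordinate side of *Smchd1* itself, the peak nearest to *Arhgap28*, at 3.51 Mb, had 6.72 in wild-type and 7.16 in *MommeD43* cells. *Tmem200c* at 2.51 Mb and *Epb41l3* at 2.17 Mb were also higher, and the 2 members in *Dlgap1*, which is nearer, were lower, with differences of -0.24 and -0.09. A pair of longer listed peaks in *Dlgap1* was higher, by 0.26 and 0.24, as were those nearest to *Arhgap28*, by 0.41, and in *Akain1*, by 0.31. Of the 7 members within 5 Mb of *Smchd1*, 3 were higher in *MommeD43* as deposited. Among all 15 listed regions within that distance 9 were higher, against 66% of all listed regions. On chromosome 5 the members in or nearest to *Suds3*, *Oas1c*, *Tmem132c* and *Tmem132d* were higher, by 0.39, 0.56, 1.19 and 0.28, and most of them lie megabases apart. Of the chromosome 5 members with a mean above 4, 43 of 63 were higher as deposited (68.3%). This was the highest share of any chromosome, beside 52.2% of all members and 66% of all listed regions. After subtraction of the median over all listed regions 32 of 63 were higher, against 38.2% of all members. The chromosome 5 share was then not the highest, with 25 of 49 higher on chromosome 14. As deposited, chromosome 16 had the lowest share of members higher in *MommeD43*, 13 of 45 (28.9%), against 52.2% of all members. After subtraction of the median over all listed regions it was 10 of 45, against 38.2%, and was not the lowest. The cause of these groupings was not tested.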
